A study of Saccharomyces cerevisiae with 18 samples.

Results

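The 45 genes described here encode proteins of the small subunit processome, the nucleolar particle in which budding yeast begins to make the small (40S) ribosomal subunit. The rule takes them by name and uses no measured value, although the set was picked with earlier results of these data known: the UTP-A, UTP-B and UTP-C complexes, the proteins of the box C/D U3 snoRNP, the Mpp10 complex and further 40S assembly factors. All 45 were found by their R64 systematic names among the 6577 genes of the expression matrix, and all 45 passed the filter on low values, as did 5954 genes in all. They lie on 14 chromosomes, and none overlaps another annotated gene. The genes of the U3 snoRNA were not analysed here.

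The processome assembles on the ribosomal RNA precursor while RNA polymerase I is still transcribing it. UTP-A binds the leader of the precursor first, UTP-B and the U3 snoRNP follow, and U3 base-pairs with the precursor so that it can fold and be cut. Helicases and a GTPase then remodel the particle. The genes for these factors are transcribed by RNA polymerase II as part of the ribosome biogenesis regulon, which follows the growth rate of the cell.

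The 9 RNA-seq libraries were made from poly-A RNA of 3 genotypes, with a separate culture behind each library: 3 of wild-type, 3 of *spn1 K192N* and 3 of *spn1 141-305*. Spn1 is an essential histone chaperone that travels with elongating RNA polymerase II. The K192N allele has 1 substitution in the conserved central domain, and the 141-305 allele keeps that domain without the regions on either side of it, through which Spn1 contacts histones and nucleosomes. The strains are MATa derivatives of BY4741 (*his3*, *leu2*, *met15*, *ura3*) in which *LEU2* replaced chromosomal *SPN1* and the allele under study, expressed from the native promoter, was carried on a *HIS3* plasmid. All were grown in YPD to mid-exponential phase, and each received *S. pombe* cells as a reference for scaling. In the labels, wild-type carries the parental genotype with no plasmid and each RNA-seq library has its own strain name, so the strain description of the study was followed. Each mutant was compared with wild-type to ask how its Spn1 changes RNA levels, and the mutants were compared with each other.

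Levels are rlog values, a regularized log2 scale on which small differences between libraries are shrunk, after scaling of the libraries on the *S. pombe* genes. The MATa gene *STE2* stood at 14.40 to 14.66 against 6.52 to 6.75 for the MATalpha gene *STE3*. *URA3* and *MET17* (*MET15*) were listed at 0 in all 9 libraries, but so were *MFA1* and *MFA2*, pheromone genes that MATa cells express, so a listed 0 does not check the genotype. Mean *SPN1* was 11.31 in *spn1 141-305*, whose coding region is shorter, against 12.30 in wild-type and 12.81 in *spn1 K192N*. A substitution such as K192N cannot be checked from these values. A gene was called lower or higher where limma gave a Benjamini-Hochberg adjusted p below 0.05 over all 5954 tested genes. Over those genes the median log2 fold change against wild-type was −0.076 in *spn1 K192N* and −0.095 in *spn1 141-305*, so members are read beside these values.

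The processome genes were well expressed in wild-type. Their mean rlog value was 11.56 at the median of the 45, from 9.35 for *UTP30* to 15.01 for *NOP1*. Levels per kb (rlog value minus log2 of the length in kb) used the length from start to stop codon, introns included. On this scale all 45 stood above the median of tested protein-coding genes, which was 9.05. On this scale per length *NOP1*, the methyltransferase fibrillarin, was at 15.03, *SNU13* at 14.29, *NOP56* at 13.19 and *NOP58* at 13.14. The other member of the U3 particle, *RRP9*, was at 10.37, close to the member median of 10.66. *UTP20*, the longest member, was lowest at 9.51. The 4 highest levels per length thus belonged to the core box C/D proteins, which also serve the other box C/D snoRNPs.

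The regions before the start codons of these genes share sequence that the choice by name did not use. The PAC motif (GATGAG, searched on both strands), the site of the repressors Dot6 and Tod6, was found in the 250 bases before the start codon of 39 of 45 members (86.7%) and of 964 of 5875 protein-coding genes (16.4%). The RRPE motif (AAAATTTT, its own reverse complement), the site of Stb3, was found in 34 members (75.6%) and in 8.82% of protein-coding genes. Both motifs occurred in 31 members (68.9%), against 4.17% of protein-coding genes. The Reb1 site core (TTACCCG, both strands) was in 5 members (11.1%) and in 7.18% of protein-coding genes. Stretches that hold both motifs are shown for 8 members whose RNA is described below, 7 with large falls in *spn1 141-305* and *UTP23* with the smallest. Each is read 5′ to 3′ on the strand of the gene from the R64 genome sequence of RefSeq, starts 20 bases before the first motif and ends with the last one, and has PAC (as GATGAG or its reverse complement CTCATC) and RRPE in capitals.
UTP20: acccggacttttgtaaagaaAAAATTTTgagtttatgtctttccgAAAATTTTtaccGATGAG
UTP10: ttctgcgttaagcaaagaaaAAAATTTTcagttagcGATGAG
PWP2: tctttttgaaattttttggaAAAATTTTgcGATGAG
UTP13: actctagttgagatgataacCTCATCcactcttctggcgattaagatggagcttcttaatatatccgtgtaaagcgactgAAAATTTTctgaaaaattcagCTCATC
BMS1: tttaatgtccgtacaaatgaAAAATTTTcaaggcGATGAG
UTP21: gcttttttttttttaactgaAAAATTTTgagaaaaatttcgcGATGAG
NAN1: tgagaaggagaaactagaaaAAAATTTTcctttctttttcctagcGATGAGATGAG
UTP23: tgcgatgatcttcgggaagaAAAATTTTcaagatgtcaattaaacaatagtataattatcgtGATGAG

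These stretches lie at chrII:227407-227469 (plus strand) for *UTP20*, chrX:217404-217445 (minus) for *UTP10*, chrIII:223367-223402 (minus) for *PWP2* and chrXII:581859-581965 (minus) for *UTP13*. Those of *BMS1*, *UTP21*, *NAN1* and *UTP23* lie at chrXVI:143272-143311 (minus), chrXII:937339-937386 (minus), chrXVI:310044-310099 (plus) and chrXV:333462-333529 (plus). The order is the same in all 8: the PAC nearest to RRPE lies between it and the start codon, 2 bases after it in *PWP2* and 34 bases after it in *UTP23*. Among the 31 members with both motifs, RRPE was the farther from the start codon of the closest pair in 23 (74.2%), with a median of 12 bases between them. Among the 245 protein-coding genes with both motifs this order was found in 157 (64.1%), with a median of 13 bases. PAC was read as GATGAG on the strand of the gene in 33 of the 39 members that hold it (84.6%), against 52.7% of the 964 protein-coding genes. The 58 PAC sites of members began 66 to 229 bases before the start codon, with a median of 109. *UTP22*, *EMG1* and *UTP30* held neither motif in this window. A match in these letters is a description and does not show that a factor was bound.

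**Figure D1:**
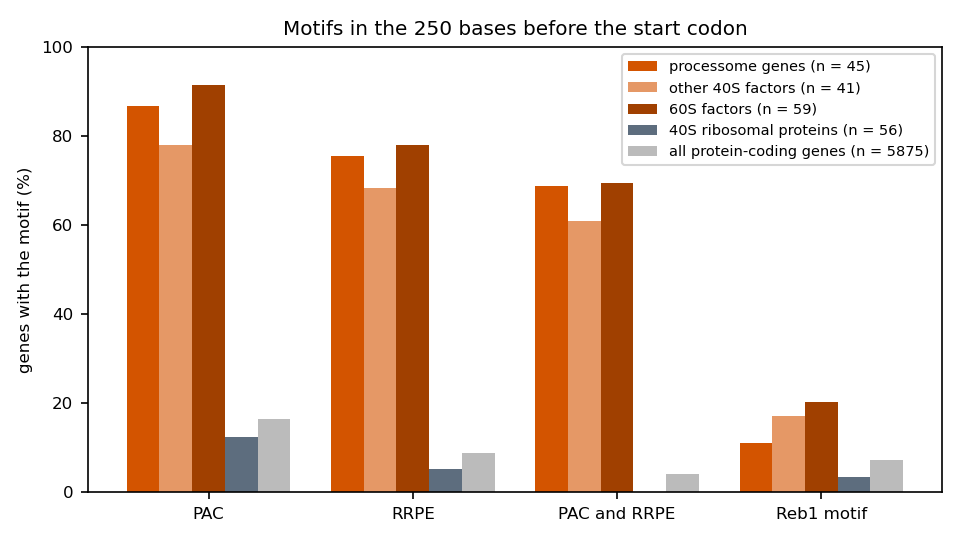
Share of genes (vertical axis, percent) with the PAC, RRPE or Reb1 motif, or with PAC and RRPE together, in the 250 bases before the start codon, for 5 sets of genes. The 45 processome genes held PAC in 86.7% and RRPE in 75.6%, near the other 40S factors (78.0% and 68.3%) and 60S factors (91.5% and 78.0%), whereas genes for 40S ribosomal proteins held them in 12.5% and 5.36%.

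The changes of processome RNAs in the Spn1 mutants were small on the shrunken rlog scale, and all that were called were falls. In *spn1 141-305*, 17 of 45 members were called lower than wild-type (37.8%), where 18.8% of all tested genes were, and 0 were called higher (0.453% of all tested genes). The log2 fold change was below 0 in 45 of 45 members, from −0.40 for *UTP20* to −0.0071 for *UTP23*, with a median of −0.19 beside −0.095 over all tested genes. In 33 members (73.3%) every *spn1 141-305* library lay below every wild-type library, where 45% of all tested genes did so, and in 0 members did every one lie above (1.6% of all tested genes). In *spn1 K192N*, 1 of 45 members, *UTP20*, was called lower (2.22%), where 4.8% of all tested genes were, and 0 were called higher (0.403% of all tested genes). An unadjusted p below 0.05 was reached by 18 members in *spn1 K192N*, where 23.8% of all tested genes reached it, and by 30 in *spn1 141-305*, where 35.8% did. The median of the members was −0.16 beside −0.076, with values below 0 in 43 of 45, and 17 members (37.8%) had every *spn1 K192N* library below wild-type, where 18.8% of all tested genes did. In 0 members did every *spn1 K192N* library lie above wild-type (1.44% of all tested genes). The comparisons share their wild-type libraries and are not independent of each other.

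**Figure D2:**
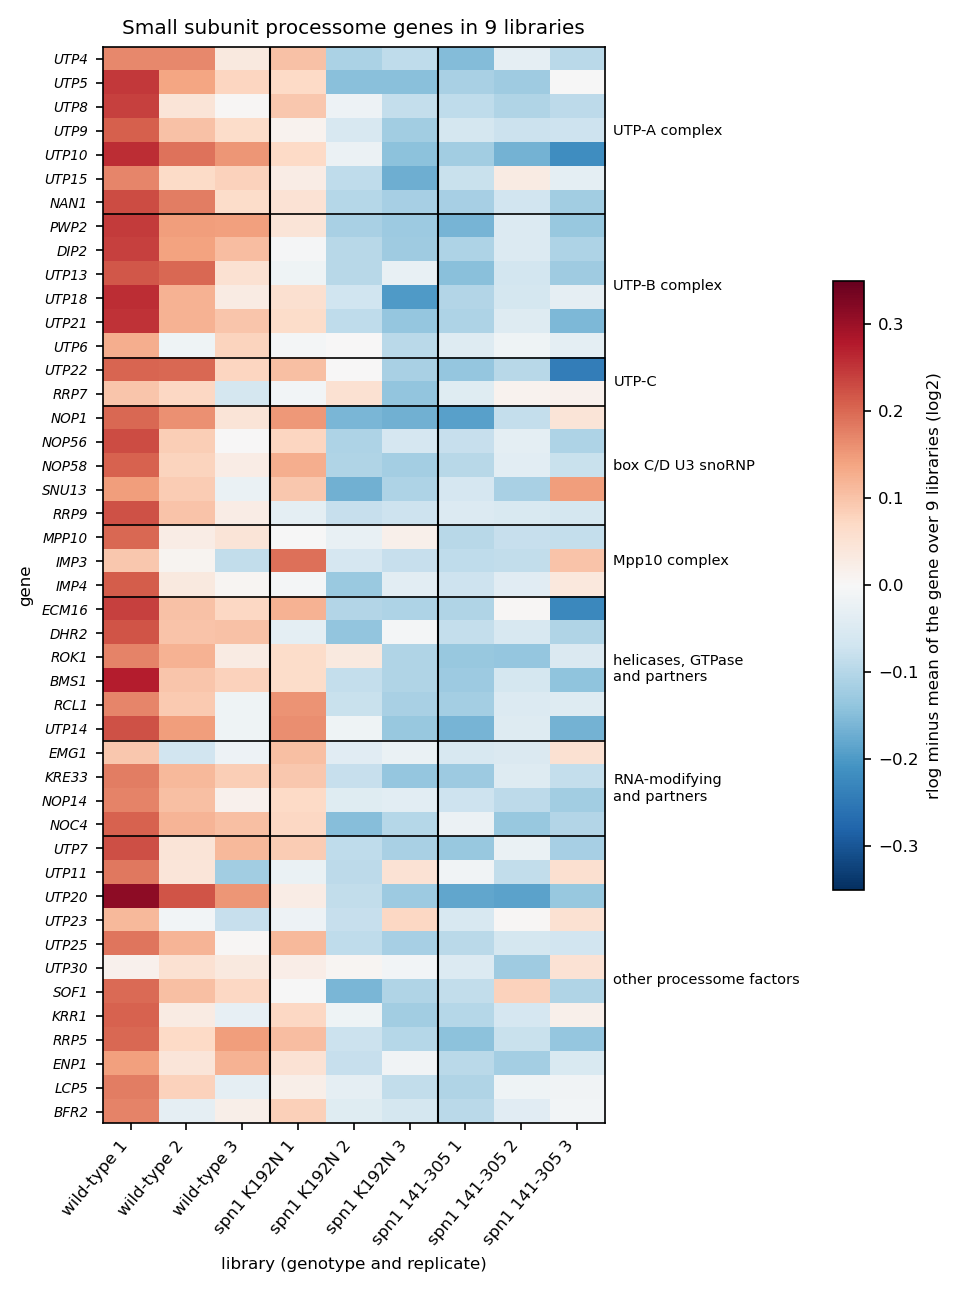
Level of each of the 45 genes in each of the 9 libraries, shown as rlog value minus the mean of the gene over the libraries (colour, log2), with genes grouped by complex and libraries by genotype. Wild-type replicate 1 is the reddest column, *spn1 K192N* replicate 1 is redder than the other mutant libraries, and the 3 *spn1 141-305* columns are mostly blue.

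The libraries of a genotype were not alike, and the counts depend on this. The median deviation of the 45 members from their own means was 0.20, 0.10 and 0.045 in replicates 1, 2 and 3 of wild-type. In *spn1 K192N* these medians were 0.065, −0.081 and −0.11, and in *spn1 141-305* −0.096, −0.058 and −0.077. Wild-type replicate 1 was the highest wild-type library in 43 of 45 members, and *spn1 K192N* replicate 1 was the highest of its genotype in 39. Without wild-type replicate 1, 2 members (4.44%) were called lower in *spn1 141-305*, beside 4.67% of all tested genes, and 0 in *spn1 K192N*, beside 0.84%. Without *spn1 K192N* replicate 1, 32 were called lower in *spn1 141-305* (34.2% of all tested genes) and 29 in *spn1 K192N* (34.1%). The 3 genotypes share 1 estimate of the spread, and in *spn1 K192N* the member median also moved, from −0.16 to −0.21, as did that of all tested genes, from −0.076 to −0.115. Leaving out both of these libraries, a choice made after seeing the data, gave 22 members in *spn1 141-305* and 20 in *spn1 K192N*, where 20.5% and 18.8% of all tested genes were called lower. Over all tested genes the same libraries stood apart, with medians of 0.11 in wild-type replicate 1 and 0.061 in *spn1 K192N* replicate 1. In *spn1 141-305* the count was also 3 (6.67%, beside 9.22% of all tested genes) without wild-type replicate 2. It was 3 (6.67%, beside 7.89%), 7 (15.6%, beside 10.7%) and 2 (4.44%, beside 9.42%) without *spn1 141-305* replicate 1, 2 or 3. The member share was thus below that of all tested genes in 4 of the 9 fits that left out 1 library, whereas the member median was below the median of all tested genes in 9 of 9. In *spn1 K192N* the count was 0 without wild-type replicate 2 and without *spn1 K192N* replicate 2 or 3, where 2.38%, 2.32% and 2.0% of all tested genes were called.

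**Figure D3:**
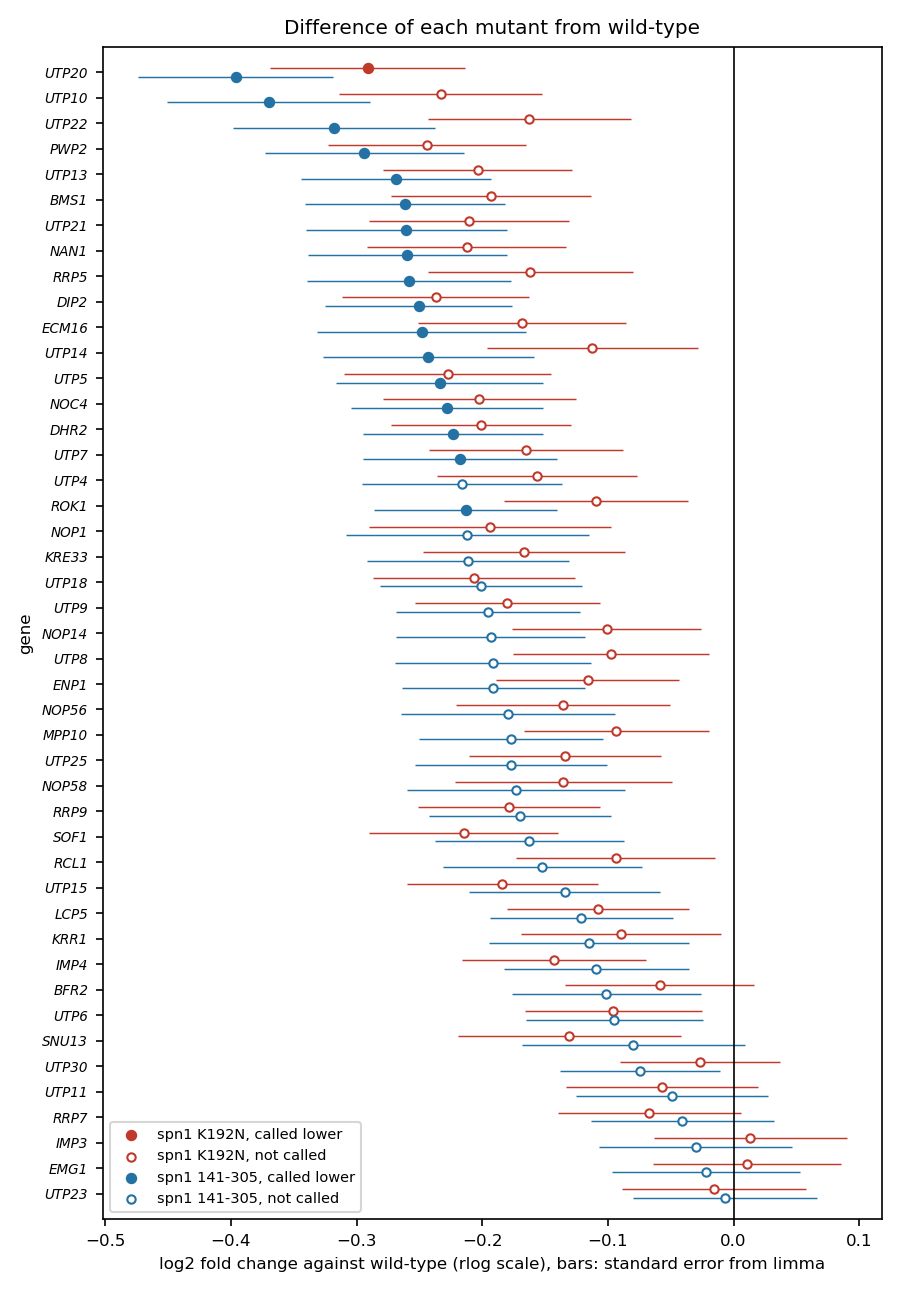
Fitted log2 fold change against wild-type (horizontal axis, rlog scale) of each of the 45 genes in *spn1 K192N* (red) and *spn1 141-305* (blue), ordered by the value in *spn1 141-305*. Bars are limma standard errors and filled points are called lower. The 17 filled blue points run from −0.40 to −0.21, and 1 red point, *UTP20*, is filled.

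In UTP-A, the complex that first engages the precursor, 3 of 7 genes were called lower in *spn1 141-305*: *UTP10*, *UTP5* and *NAN1*. Of all tested genes, 18.8% were called lower in that comparison. The complex median log2 fold change was −0.22 in *spn1 141-305* and −0.18 in *spn1 K192N*, where limma called 0 of 7 and 5 had an unadjusted p below 0.05, which 23.8% of all tested genes had in that comparison. *UTP10* (YJL109C, chrX:212000-217309, minus strand), a long helical repeat protein, stood at 13.13, 13.06 and 13.03 in wild-type, at 12.94, 12.85 and 12.73 in *spn1 K192N* and at 12.75, 12.70 and 12.65 in *spn1 141-305*. All mutant libraries were thus below all wild-type libraries. Its log2 fold change was −0.37 in *spn1 141-305* (SE 0.081, adjusted p = 0.00284 from limma) and −0.23 in *spn1 K192N* (adjusted p = 0.0849). *NAN1* (YPL126W, chrXVI:310210-312900, plus strand), a WD-repeat protein also named Utp17, stood at 12.59, 12.54 and 12.42 in wild-type, at 12.41, 12.26 and 12.24 in *spn1 K192N* and at 12.24, 12.29 and 12.24 in *spn1 141-305*. Again no mutant library reached the lowest wild-type value, though *spn1 K192N* replicate 1 came close to it. *NAN1* had a log2 fold change of −0.26 in *spn1 141-305* (SE 0.079, adjusted p = 0.0231 from limma). *UTP5*, another WD-repeat subunit, was lower by a log2 fold change of −0.23 (adjusted p = 0.0454 from limma). The remaining genes *UTP4*, *UTP8*, *UTP9* and *UTP15* had values from −0.22 to −0.13. *UTP4*, at −0.22, was the nearest member outside the call (adjusted p = 0.0536 from limma). In all 7 genes every *spn1 141-305* library lay below every wild-type library, where 45% of all tested genes did so. In 5 of 7 every *spn1 K192N* library did, where 18.8% of all tested genes did so.

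UTP-B is the complex of WD-repeat proteins and Utp6 that joins next and contacts U3. In *spn1 141-305*, 4 of its 6 genes were called lower (18.8% of all tested genes): *PWP2*, *UTP13*, *UTP21* and *DIP2*. Its medians were −0.26 in *spn1 141-305* and −0.21 in *spn1 K192N*, where limma called 0 of 6 and 5 had an unadjusted p below 0.05 (23.8% of all tested genes). *PWP2* (YCR057C, chrIII:220457-223228, minus strand) stood at 12.61, 12.51 and 12.51 in wild-type, at 12.41, 12.25 and 12.24 in *spn1 K192N* and at 12.20, 12.31 and 12.23 in *spn1 141-305*. The 6 mutant libraries were all lower than the 3 of wild-type. Its log2 fold change was −0.29 in *spn1 141-305* (SE 0.079, adjusted p = 0.0119 from limma) and −0.24 in *spn1 K192N* (adjusted p = 0.0644). *UTP13* (YLR222C, chrXII:579318-581771, minus strand) stood at 11.97, 11.95 and 11.80 in wild-type, at 11.73, 11.65 and 11.72 in *spn1 K192N* and at 11.60, 11.69 and 11.63 in *spn1 141-305*. Wild-type replicate 3 was nearest to the mutants. *UTP13* thus had a log2 fold change of −0.27 in *spn1 141-305* (SE 0.075, adjusted p = 0.0154 from limma). *UTP21* (YLR409C, chrXII:934414-937233, minus strand) stood at 12.36, 12.23 and 12.21 in wild-type, at 12.17, 12.02 and 11.97 in *spn1 K192N* and at 12.00, 12.07 and 11.95 in *spn1 141-305*. Neither mutant overlapped wild-type, and *spn1 K192N* replicate 1 was the highest mutant library. Its log2 fold change was −0.26 in *spn1 141-305* (SE 0.080, adjusted p = 0.0237 from limma). *DIP2* changed by −0.25 (adjusted p = 0.0204 from limma). *UTP18* and *UTP6* were not called, at −0.20 and −0.095. Every *spn1 141-305* library of each lay below wild-type, as in 45% of all tested genes. In 4 of the 6 UTP-B genes every *spn1 K192N* library did, as in 18.8% of all tested genes.

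Of the UTP-C proteins, *UTP22* was called lower in *spn1 141-305*, as were 18.8% of all tested genes, and *RRP7* was not called. *UTP22* (YGR090W, chrVII:662358-666071, plus strand) stood at 12.38, 12.38 and 12.25 in wild-type, at 12.28, 12.18 and 12.06 in *spn1 K192N* and at 12.04, 12.08 and 11.94 in *spn1 141-305*. The *spn1 141-305* libraries were below all others except *spn1 K192N* replicate 3, and *spn1 K192N* overlapped wild-type. Of all tested genes, 45% had every *spn1 141-305* library below wild-type. The log2 fold change of *UTP22* was −0.32 in *spn1 141-305* (SE 0.080, adjusted p = 0.00811 from limma) and −0.16 in *spn1 K192N* (adjusted p = 0.218). *RRP7*, its partner in the complex, had −0.041 and −0.067 in the same order, with overlapping libraries.

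**Figure D4:**
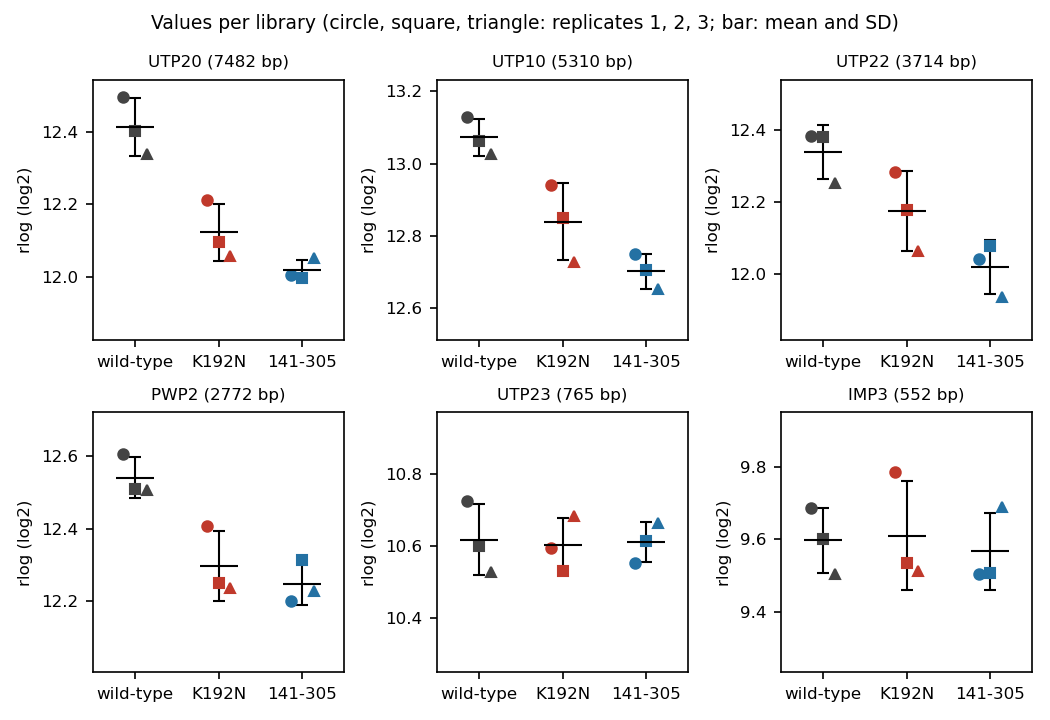
The rlog value (log2) of 6 genes in each library, by genotype, with replicates 1, 2 and 3 as circle, square and triangle, and the mean and SD as bars. The vertical axes cover the same span of values and do not start at 0. *UTP20*, *UTP10* and *PWP2* have all 6 mutant libraries below wild-type, *UTP22* has the 3 of *spn1 141-305* below it, and in *UTP23* and *IMP3* the genotypes overlap.

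None of the 5 box C/D proteins of the U3 snoRNP and none of the 3 Mpp10 complex genes was called by limma in either mutant. Of all tested genes, 18.8% were called lower in *spn1 141-305* and 4.8% in *spn1 K192N*. An unadjusted p below 0.05 was reached in *spn1 141-305* by 3 of the 5 and 1 of the 3 genes, beside 35.8% of all tested genes. In *spn1 K192N* it was reached by 1 and 0, beside 23.8% of all tested genes. *NOP1* stood at 15.07, 15.03 and 14.92 in wild-type, at 15.02, 14.71 and 14.70 in *spn1 K192N* and at 14.68, 14.79 and 14.91 in *spn1 141-305*. The spread of *NOP1* within a mutant was the widest of any member in *spn1 K192N* (SD 0.18, n = 3). Its log2 fold change of −0.21 in *spn1 141-305* had a standard error of 0.096 (adjusted p = 0.113 from limma). *NOP56* and *NOP58*, the core scaffold of box C/D particles, had −0.18 and −0.17, the U3-specific *RRP9* −0.17 and the RNA-binding *SNU13* −0.080. *MPP10* had −0.18, with all *spn1 141-305* libraries below wild-type, as in 45% of all tested genes. *IMP4* and *IMP3*, which help U3 pair with the precursor, had −0.11 and −0.030.

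*IMP3* (YHR148W, chrVIII:393534-394085, plus strand) had the largest log2 fold change of the members in *spn1 K192N*. It stood at 9.69, 9.60 and 9.51 in wild-type, at 9.79, 9.53 and 9.51 in *spn1 K192N* and at 9.50, 9.51 and 9.69 in *spn1 141-305*. The 3 genotypes overlapped. The value in *spn1 K192N* was 0.013 (SE 0.077, adjusted p = 0.925 from limma), and it was −0.074 without *spn1 K192N* replicate 1.

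Among the helicases, the GTPase and their partners, *BMS1*, *ECM16*, *UTP14*, *DHR2* and *ROK1* were called lower in *spn1 141-305*. These are 5 of 6 genes, where 18.8% of all tested genes were called lower. The median was −0.23 in *spn1 141-305* and −0.14 in *spn1 K192N*, where limma called 0 of 6 and 2 had an unadjusted p below 0.05 (23.8% of all tested genes). *BMS1* (YPL217C, chrXVI:139620-143171, minus strand), the GTPase of the particle, stood at 12.30, 12.12 and 12.10 in wild-type, at 12.08, 11.94 and 11.92 in *spn1 K192N* and at 11.89, 11.96 and 11.88 in *spn1 141-305*. Wild-type replicate 1 was well above the other libraries, and *spn1 K192N* replicate 1 was just under wild-type. Its log2 fold change was −0.26 in *spn1 141-305* (SE 0.079, adjusted p = 0.0229 from limma). *ECM16*, also named Dhr1, is the helicase that removes U3, and it changed by −0.25. *UTP14*, which activates Dhr1, changed by −0.24, and the helicases *DHR2* and *ROK1* by −0.22 and −0.21. Adjusted p from limma for these 4 genes lay between 0.0300 and 0.0426. *RCL1*, the partner of Bms1, was not called (−0.15). In all 6 genes the *spn1 141-305* libraries lay below wild-type, where 45% of all tested genes did so.

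Of the 4 RNA-modifying enzymes and their partners, *NOC4* alone was called lower in *spn1 141-305*, at −0.23 (adjusted p = 0.0366 from limma). This is 25.0% of the list, beside 18.8% of all tested genes. Noc4 works with Nop14 and the methyltransferase Emg1. *NOP14* was at −0.19, *KRE33*, the acetyltransferase of the small-subunit RNA, at −0.21 and *EMG1* at −0.022. *EMG1* was the other member above 0 in *spn1 K192N*, at 0.010 (adjusted p = 0.940 from limma).

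The 12 further factors held the largest and the smallest falls in *spn1 141-305*. There 3 of the 12 were called lower (25.0%), beside 18.8% of all tested genes. In *spn1 K192N* 1 was (8.33%), beside 4.8%. *UTP20* (YBL004W, chrII:227636-235117, plus strand), a giant helical repeat protein of the outer particle, stood at 12.50, 12.40 and 12.34 in wild-type, at 12.21, 12.10 and 12.06 in *spn1 K192N* and at 12.00, 12.00 and 12.05 in *spn1 141-305*. The 3 genotypes formed separate ranges, with *spn1 141-305* lowest. Of all tested genes, 45% had every *spn1 141-305* library below wild-type and 18.8% every *spn1 K192N* library. In 12.0% every *spn1 141-305* library lay below every *spn1 K192N* library. The log2 fold change of *UTP20* was −0.40 in *spn1 141-305* (SE 0.078, adjusted p = 0.00127 from limma) and −0.29 in *spn1 K192N* (SE 0.078, adjusted p = 0.0252). The call in *spn1 141-305* was kept in 9 of 9 fits that left out 1 library, and the call in *spn1 K192N* in 5 of 9. *UTP10* was called lower in *spn1 141-305* in 9 of 9. *UTP20* lost its call in *spn1 K192N* without wild-type replicate 1 or 2 and without *spn1 K192N* replicate 2 or 3, where the highest adjusted p was 0.184.

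*RRP5*, an S1-repeat protein that serves both subunits, and *UTP7*, a WD-repeat protein, were also lower in *spn1 141-305*, at −0.26 and −0.22 (adjusted p = 0.0277 and 0.0460 from limma). The other 9 were not called. *ENP1*, which stays with the pre-40S particle into the cytoplasm, was at −0.19, *UTP25* at −0.18 and *SOF1* at −0.16. *LCP5*, *KRR1*, *BFR2*, *UTP30* and *UTP11* had values from −0.12 to −0.049. *UTP23* (YOR004W, chrXV:333592-334356, plus strand) had the smallest fall of the 45. It stood at 10.72, 10.60 and 10.53 in wild-type, at 10.59, 10.53 and 10.68 in *spn1 K192N* and at 10.55, 10.61 and 10.66 in *spn1 141-305*. All 3 genotypes overlapped. The log2 fold change was −0.0071 in *spn1 141-305* (SE 0.073, adjusted p = 0.955 from limma).

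Between the mutants limma called 0 members, and 0 had an unadjusted p below 0.05, which 12.6% of all tested genes reached. Of all tested genes, 1.28% were called lower in *spn1 141-305* and 0.621% higher. The median log2 fold change of *spn1 141-305* over *spn1 K192N* was −0.044 beside −0.022 over all tested genes, and 35 of 45 values were below 0. They ran from −0.16 for *UTP22* to 0.052 for *SOF1*. Every *spn1 141-305* library lay below every *spn1 K192N* library in 4 members (8.89%), *UTP8*, *MPP10*, *NOP14* and *UTP20*, where 12.0% of all tested genes did, and above it in 0 (4.55% of all tested genes). *SOF1* (YLL011W, chrXII:127523-128992, plus strand), a WD-repeat protein, stood at 11.14, 11.05 and 11.02 in wild-type, at 10.94, 10.78 and 10.84 in *spn1 K192N* and at 10.86, 11.02 and 10.84 in *spn1 141-305*. In *spn1 141-305* replicate 2 it reached the wild-type range. The log2 fold change of *SOF1* between the mutants was 0.052 (SE 0.075, adjusted p = 0.865 from limma). Without *spn1 K192N* replicate 1 the member median turned to 0.0095.

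The members called lower in *spn1 141-305* were mostly longer than those that were not called. The study examined gene length, so the 45 genes were set out by length from start to stop codon, introns included. The 17 genes called lower were 1659 to 7482 bp long, with a median of 2772 bp, and the 28 others were 381 to 3171 bp long, with a median of 1461 bp. Of the 5 and 7 members in the first and second quartiles of length of tested protein-coding genes (153 to 777 bp and 780 to 1248 bp), 0 were called, where 4.01% and 10.4% of all genes in those quartiles were. In the third quartile (1251 to 1914 bp) 3 of 14 members were called (21.4%), beside 19.4% of all its genes. In the fourth (1917 to 14733 bp) 14 of 19 members were called (73.7%), beside 45.1%. In *spn1 K192N* the members called in the 4 quartiles were 0, 0, 0 and 1, beside 2.22%, 4.25%, 4.82% and 8.41% of all genes. The 5 members of the fourth quartile not called in *spn1 141-305* were *UTP4*, *UTP8*, *KRE33*, *NOP14* and *UTP25*.

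The 45 genes are not independent replicates and share the same 9 libraries. Across them the log2 fold change in *spn1 141-305* followed log2 gene length with Pearson's r = −0.892 and Spearman's rho = −0.894. Without the 3 longest, *UTP20*, *UTP10* and *RRP5*, these were −0.866 and −0.876. The same relation over 5565 tested protein-coding genes gave −0.477 and −0.585. In *spn1 K192N* the members gave r = −0.675 and rho = −0.648. With the level per kb the members gave r = 0.225 and rho = 0.297 in *spn1 141-305*. The members had a median length of 1722 bp, against 1248 bp for tested protein-coding genes. With the rlog value itself, which is not per length, they gave r = −0.534 and rho = −0.641. The rlog transformation shrinks genes of low count more, and its part in the relation with length was not tested.

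**Figure D5:**
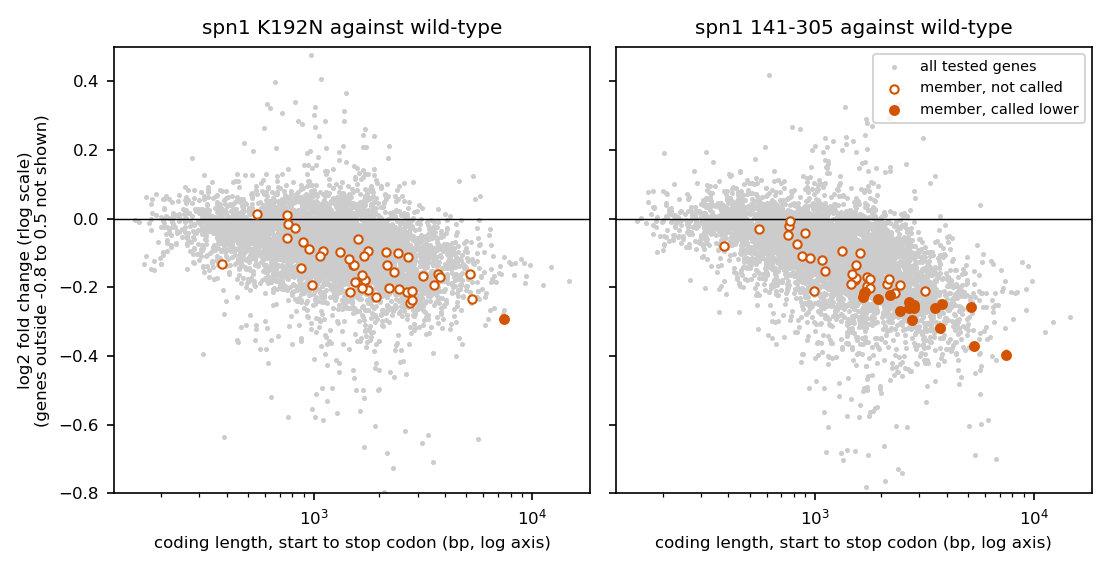
Log2 fold change against wild-type (vertical axis, rlog scale) by length from start to stop codon, introns included (horizontal log axis, bp). Tested genes are grey and the 45 members orange, filled where called lower, in *spn1 K192N* and *spn1 141-305*. The members descend with length in both panels, and the filled points of *spn1 141-305* begin at 1659 bp.

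The promoter motifs were common both in members that were called and in members that were not. Of the 17 members lower in *spn1 141-305*, 16 held PAC (94.1%) and 15 held RRPE (88.2%). Of the 28 others, 23 (82.1%) and 19 (67.9%) did. Both motifs together occurred in 15 of the 17 (88.2%) and in 16 of the 28 (57.1%). Among single genes, *UTP22*, with neither motif, fell by 0.32, and only *UTP20* and *UTP10*, with both, fell more. *UTP23*, with both, had the smallest fall. Whether the motifs go with the size of the fall was not tested.

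Other genes of ribosome synthesis were described by lists written by hand. Of all tested genes, 18.8% were called lower in *spn1 141-305* and 4.8% in *spn1 K192N*. Of 41 other 40S assembly factors, 8 were lower in *spn1 141-305* (19.5%) and 1 in *spn1 K192N*, and of 59 60S assembly factors, 13 (22.0%) and 1. Their medians were −0.13 and −0.15 in *spn1 141-305*. The 37.8% of processome genes stood above both shares, a difference given without a test and without matching the lists for gene length. The largest fall among the other 40S factors was that of *NOP9* at −0.35, followed by *POL5* at −0.34 and *LTV1* at −0.33. Of 13 genes for RNA polymerase I and its initiation factors, 5 were lower in *spn1 141-305* (38.5%). These were the large subunits *RPA190* (−0.31) and *RPA135* (−0.32) and the factors *RRN3* (−0.35), *RRN6* (−0.31) and *RRN7* (−0.25). The median of this list was −0.096, beside −0.095 over all tested genes. The 5 were 1545 to 4995 bp long, and the 8 others 378 to 1524 bp. Of 9 regulators of ribosome synthesis genes, 6 were lower (66.7%): *IFH1* (−0.41), *SFP1* (−0.28), *FHL1* (−0.27), *SCH9* (−0.26), *TOD6* (−0.24) and *CRF1* (−0.19). This list, too, was not matched for gene length. Of 56 genes for 40S ribosomal proteins, 3 were lower (5.36%), beside 18.8% of all tested genes, and the median of the list was −0.073. These 56 genes are short, 171 to 1214 bp with introns included, and lie in the first and second length quartiles. In those quartiles 4.01% and 10.4% of all genes were called lower in *spn1 141-305*. In *spn1 K192N*, *LTV1*, *RSA4*, *RRN6*, *IFH1* and *RPS9A* were each the only gene called lower in their list. *RPS14B* was called higher, as were 0.403% of all tested genes. *RPS9A* and *RPS14B* each have a near-identical paralog, so the split of reads between the copies is uncertain.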

How the data were processed

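The RNA-seq part of the series was used (9 of 18 samples), and the 9 MNase samples were not analysed here. The authors quantified transcripts with Salmon 1.9 on *S. cerevisiae* and *S. pombe* sequences, estimated size factors on the *S. pombe* genes with DESeq2 1.30.1 in R 4.0.3, and deposited 1 matrix of log2 values made with the rlog function. Counts per library were not used here, so the depth of the libraries is unknown and no counting error is given. The authors' comparison tables (fold changes, standard errors, p-values and mean scaled counts) were not used.

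The authors tested counts with DESeq2. Because the deposited values are log2 values, limma 3.58.1 in R 4.3.3 was fitted to them, with a mean for each genotype over the 9 libraries and a trended prior variance (eBayes). Tests were two-sided. Genes whose mean rlog value reached log2(10) were tested, 5954 in all, p-values were adjusted over them by the Benjamini-Hochberg method, and a call needed an adjusted p below 0.05. Replicates are separate cultures of 1 strain per genotype. Of the gene identifiers, 5896 matched the R64 annotation of RefSeq, which gave names, positions and gene lengths. These lengths run from start to stop codon and include introns. The 250 bases before each start codon were read from the R64 genome. Every column of the matrix was mapped to a sample. The steps were tested on simulated data. Tables were made with pandas 2.3.3 and numpy 2.4.6 in Python 3.11.15, and plots with matplotlib 3.10.9.

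The members and lists were chosen with earlier results of these data known, so no test was made over a list. Full statistics were given, by rule, for the 8 called members with the largest absolute log2 fold change in each comparison with wild-type, for up to 4 called between the mutants, and for the member with the largest log2 fold change of each comparison. Other genes come from the lists. Alternatives covered the filter, centring of each library on its median gene, the trend of the prior variance, a fit of the compared genotypes alone, a replicate block, a stricter threshold and each library left out in turn.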

Additional observations from a re-analysis of the deposited data

How the results depend on the processing

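Counts of members called lower moved with the fit. In *spn1 141-305* the count of 17 became 10 after centring each library on the median gene (22.2%, beside 8.67% of all tested genes), 31 with only the genotypes compared in the fit (68.9%, beside 34.9%) and 3 at an adjusted p below 0.01 (6.67%, beside 6.79%). It ran from 2 to 32 over the fits that left out 1 library each. In *spn1 K192N* the count of 1 became 3 after centring (6.67%, beside 3.24%), 2 with a prior variance without trend (4.44%, beside 2.67%), 0 with only the genotypes compared (beside 4.0%), 0 at an adjusted p below 0.01 (beside 1.65%), 0 to 29 over fits that left out 1 library, and 20 without replicate 1 of wild-type and of *spn1 K192N* (44.4%, beside 18.8%; chosen after seeing the data). Centring moved the median of all tested genes from −0.076 to 0.0017 in *spn1 K192N* and from −0.095 to 0.0035 in *spn1 141-305*, and the member medians to −0.079 and −0.095. Between the mutants no member was called by limma in any of these fits, and the median ran from −0.074 to 0.0095 over fits that left out 1 library, at 0.0095 also without both replicates 1. *UTP20* and *UTP10* were called lower in *spn1 141-305* under 16 of 16 alternatives.

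Members near 0 changed sign. Centring shifts every gene of a comparison by the same amount, so values near enough to 0 change sign. Why signs changed in the fits that left out libraries was not tested. After centring, in *spn1 K192N*, *RRP7* was at 0.010, *UTP11* at 0.020, *UTP23* at 0.062, *UTP30* at 0.050 and *BFR2* at 0.019. In *spn1 141-305* it put *UTP6* at 0.0037, *RRP7* at 0.058, *SNU13* at 0.019, *IMP3* at 0.068, *EMG1* at 0.077, *UTP11* at 0.050, *UTP23* at 0.091 and *UTP30* at 0.024. Without replicate 1 of wild-type and of *spn1 K192N*, *IMP3*, *UTP11* and *UTP23* were at −0.030, 0.019 and 0.042 in *spn1 K192N*, and *IMP3*, *EMG1*, *UTP11* and *UTP23* were at 0.014, 0.024, 0.026 and 0.047 in *spn1 141-305*. Over fits that left out 1 library each, values in *spn1 K192N* ran from −0.074 to 0.063 for *IMP3*, −0.035 to 0.056 for *EMG1*, −0.14 to 0.018 for *UTP11*, −0.060 to 0.038 for *UTP23* and −0.10 to 0.0007 for *BFR2*. In *spn1 141-305* they ran from −0.092 to 0.014 for *IMP3*, −0.057 to 0.024 for *EMG1*, −0.13 to 0.026 for *UTP11* and −0.052 to 0.047 for *UTP23*, and between the mutants from −0.0058 to 0.096 for *SOF1*.

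Across genes, deviations of libraries with the same replicate number gave correlations of −0.28 to 0.24 over 9 pairs. Pairs with different numbers gave −0.45 to 0.34. A correlation does not see a shift common to all genes of a library, so it cannot decide whether the numbers pair the samples. Replicate 1 had the highest median deviation over all tested genes within wild-type (0.11) and within *spn1 K192N* (0.061). Within *spn1 141-305*, replicate 1 had the lowest (−0.052). With the replicate number as a block, 24 members were lower in *spn1 141-305* (53.3%, beside 23.8% of all tested genes), 3 in *spn1 K192N* (6.67%, beside 7.88%) and 0 between the mutants (beside 1.7%). With 3 libraries per genotype on a shrunken scale and unknown depth, a member that was not called is not shown to be unchanged.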
